A study of Rattus norvegicus with 16 samples.

Results

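The mitochondrial ribosomal proteins are the nucleus-encoded proteins of the ribosome inside mitochondria, taken here as every gene on the array whose symbol begins with Mrpl or Mrps followed by a number. There were 52 such genes among the 13215 with a row of their own, 34 of the large subunit and 18 of the small subunit. Mrps18a and Mrps30 carry small-subunit names but sit in the large subunit, and they are counted there. Their mRNA was measured in the livers of 16 male Sprague Dawley rats on Affymetrix Rat Exon 1.0 ST arrays, with 1 array per animal. The 4 groups held 4 animals each. The rats of one group were fed, those of another were killed in phase 2 of a fast (P2) and those of another in phase 3 (P3). The last group, P3r2, had reached phase 3 before getting food again for 2 days. Phase 2 is the stage of fasting that runs largely on fat and loses little protein, whereas phase 3 follows it with rising use of body protein. The sources used here give neither ages nor the length of the fasts.

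The mitochondrial ribosome translates the few mRNAs made from mitochondrial DNA, which encode core subunits of the respiratory chain and of ATP synthase. Its RNA comes from the mitochondrial genome, but all of its proteins are made in the cytosol and imported. Part of the proteins descend from bacterial ribosomal proteins and part were added during the evolution of mitochondria. In liver, mitochondria burn fatty acids, make ketone bodies and supply energy for glucose synthesis, all of which a fast engages.

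A value is a log2 signal, so a difference of 1 is a doubling of the signal, and levels of different genes are not compared because their probes differ. Changes are differences of log2 signal ± the standard error of a limma fit with 4 arrays per group. "Called" means a Benjamini-Hochberg adjusted p below 0.05 over all 18885 annotated rows, and "rose" and "fell" are kept for called changes. Each member has 1 row on the array, and all 52 were tested. Over the 16 arrays, 49 members had a mean above that of the median row (4.39) and 3 a mean below it. Median signals of the arrays lay between 4.34 and 4.46 and the standard deviations of their values between 2.12 and 2.37. The arrays with the smallest standard deviations were fed 2, P2 4 and P3 3. Precision is limited by the number of arrays. As liver tissue was measured whole, fewer cells of a type and less RNA per cell cannot be told apart.

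The livers carried high signals of hepatocyte genes. The mean log2 signal of the 7 measured hepatocyte markers of 9 was 12.19 to 12.53 in the fed livers, 12.55 to 12.61 at P2, 11.66 to 12.24 at P3 and 12.37 to 12.39 after re-feeding. Of them, 1 rose at P2 against fed, 1 rose and 2 fell at P3 against fed, and 1 rose and 4 fell at P3 against P2. On re-feeding against P3 3 rose and none fell, and none was called after re-feeding against fed. None of the 7 measured Kupffer cell and macrophage markers was called by limma in any comparison, though 3 were lower at P2 against fed at an unadjusted p below 0.05. Their mean was 6.97 to 8.05 in the fed livers, 7.06 to 7.76 at P2, 7.12 to 7.69 at P3 and 7.16 to 7.80 after re-feeding. Of the 6 measured stellate cell markers, 1 rose and 3 fell at P2 against fed, and 1 rose at P3 against P2. At P3 against fed 1 rose and 2 fell, on re-feeding against P3 1 rose and 1 fell, and after re-feeding against fed 1 fell. Of all rows, 12.7% were called at P2 against fed, 19.3% at P3 against fed and 22% at P3 against P2. On re-feeding 18.4% were called against P3 and 2.72% against fed. The part of these shifts in the results on the members was not tested.

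The sequences just before the start of a few members are shown first, because the best known regulators of nuclear genes for mitochondria bind near such starts. NRF1 binds GCGCATGCG, GABPA and other ETS factors bind CCGGAAG, and YY1 binds AAGATGGCG. The sequences are from RefSeq (GRCr8), 120 bases ending at the base before the gene's outermost annotated start, written 5′ to 3′ along the gene. Capitals mark matches to the NRF1 or ETS letters on either strand. The first capitals of Mrpl17 are overlapping NRF1 matches on both strands. Mrpl23 lies at chr1:207116810-207116929 on the plus strand, Mrps18a at chr9:22367381-22367500 on the minus strand, Mrpl17 at chr1:169575700-169575819 on the minus strand, Mrpl3 at chr8:114548850-114548969 on the plus strand and Mrpl12 at chr10:106256626-106256745 on the plus strand.
Mrpl23: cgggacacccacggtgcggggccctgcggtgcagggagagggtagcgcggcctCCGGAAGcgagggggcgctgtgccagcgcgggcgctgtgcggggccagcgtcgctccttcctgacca
Mrps18a: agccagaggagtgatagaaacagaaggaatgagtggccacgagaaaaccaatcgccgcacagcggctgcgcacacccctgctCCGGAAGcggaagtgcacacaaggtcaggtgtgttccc
Mrpl17: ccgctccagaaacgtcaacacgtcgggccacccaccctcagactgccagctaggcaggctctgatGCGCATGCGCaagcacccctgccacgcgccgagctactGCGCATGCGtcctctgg
Mrpl3: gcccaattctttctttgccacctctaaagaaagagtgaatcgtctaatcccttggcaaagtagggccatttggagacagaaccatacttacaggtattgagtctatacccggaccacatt
Mrpl12: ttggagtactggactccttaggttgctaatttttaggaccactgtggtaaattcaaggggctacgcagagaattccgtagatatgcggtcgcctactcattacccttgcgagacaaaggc
Mrpl23 and Mrps18a each carry an ETS match, and Mrpl17 carries NRF1 letters at a pair of places. The 120 bases of Mrpl3 and of Mrpl12 hold none of these letters, but Mrpl3 carries the ETS letters just past its stretch, at bases 10 to 16 after the start. Mrpl3, Mrpl12 and Mrps18a all rose at P3 against fed, whereas Mrpl23 and Mrpl17 were not called there. Mrpl23 fell from P2 to P3. These genes are a few examples, and a tie of letters to calls was not tested. Over all members with a counted window, ETS letters were found in 4 of 8 risers from P2 to P3 and 5 of 16 fallers.

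The same letters were counted on both strands in windows from 250 bases before to 50 after the RefSeq start, which 44 of the 52 members have. In 23 of the 44 that start is the outermost annotated start used for the sequences above, and in the rest it is another. The ETS letters were found in 14 of the 44 (31.8%), against 12.1% of 11849 genes with a row on the array and 8.75% of all 33469 windows. The YY1 letters were found in 8 (18.2%), against 2.42% and 1.73%. The NRF1 letters were found in 4 (9.09%), against 2.4% and 1.52%. NRF1's letters are nearly their own reverse complement, so a site can match on both strands, and it was counted once per gene. All 8 members with YY1 letters carry them on the gene's own strand within the first 50 bases after the start. They are Mrpl37, Mrpl42, Mrpl46, Mrpl50, Mrps10, Mrps18a, Mrps27 and Mrps30. The CACGTG letters of an E-box were found in 6.82% of the members, against 7.85% of genes on the array and 6.42% of all windows. The TATAAA letters of a TATA box were found in 15.9%, against 11.2% and 14.2%. A match of letters is a description and not a bound site.

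At phase 2 the mRNA of many members was higher than in fed liver, with rises among proteins of both subunits. Of the 52 members, 26 rose and none fell, where 12.7% of all rows were called, 6.13% higher and 6.58% lower. At an unadjusted limma p below 0.05, 35 were higher and 1, Mrpl19, was lower. The median change of the members was 0.49, against 0.05 for all rows. Of the 52 changes 46 were positive, where 56.9% were positive over all rows. Members are bright. When the 9442 rows above the median signal were tested alone, 11.6% of them were called higher and 27.7% in either direction, and 28 of 49 members rose. In 28 members all 4 P2 values lay above all 4 fed values, and in no member were all below. Groups that do not overlap were seen in 19.2% of all rows. The large subunit had 19 risers of 34 and the small subunit 7 of 18, a difference that was not tested.

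Mrpl34, a protein of the large subunit, had signals of 7.18, 6.17, 7.02 and 7.05 in the fed livers and of 7.58, 8.29, 8.04 and 8.45 at P2. All P2 livers were above all fed livers, and fed 2 was the lowest. It rose by 1.23 ± 0.22 (adjusted p = 0.0030). Mrpl48 had signals of 5.52, 4.85, 5.53 and 5.46 in the fed livers and of 6.14, 6.52, 6.26 and 6.87 at P2. Here too the groups did not overlap, and it rose by 1.11 ± 0.17 (adjusted p = 0.0010). Mrpl27 belongs near the centre where peptide bonds are made. Its fed values were 8.13, 7.07, 8.23 and 7.84 and its P2 values 8.77, 8.96, 8.67 and 9.27, again without overlap. It rose by 1.1 ± 0.22 (adjusted p = 0.0051). Mrpl14 binds the assembly factor Malsu1, which keeps the subunits apart until the large one is ready. It had 5.90, 5.30, 6.21 and 5.60 in the fed livers and 6.50, 6.88, 6.46 and 7.45 at P2. The highest fed liver stayed below the lowest P2 liver, and the rise was 1.07 ± 0.22 (adjusted p = 0.0071). Malsu1 itself rose by 0.82 ± 0.16 (adjusted p = 0.0042).

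Mrps23 rose by 1.07 ± 0.20 and Mrps35 by 1.06 ± 0.21, both of them proteins of the small subunit with no bacterial counterpart. Mrpl12, the stalk protein that recruits translation factors, had 7.39, 6.49, 7.53 and 7.32 in the fed livers and 7.95, 8.21, 8.20 and 8.59 at P2. The groups were apart, and the rise was 1.06 ± 0.21 (adjusted p = 0.0046). Mrpl13 had the largest change, 1.29 ± 0.31 (adjusted p = 0.016), and its call depended on a single array. Its fed signals were 6.65, 4.75, 6.59 and 6.33, with fed 2 far below the others, against 6.99, 7.34, 7.34 and 7.80 at P2. Without fed 2 its change was 0.84 (adjusted p = 0.0056), and without P2 4 the adjusted p was 0.059. Mrpl58, a peptidyl-tRNA hydrolase built into the large subunit that frees stalled ribosomes, rose by 0.53 ± 0.11. Mrps12 of the decoding centre changed by 0.18 ± 0.18 and was not called.

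Fed 2 had the lowest value of the fed livers in 49 of 52 members. Its median deviation from the fed mean was -0.42, where the other fed livers lay between 0.12 and 0.20. The P2 livers lay between 0.30 and 0.60, the P3 livers between 0.17 and 0.32 and the re-fed livers between 0.47 and 0.63. Without fed 2, 20 members rose at P2 and 1 fell, with a median change of 0.36, and 12.9% of all rows were called. Without fed 2, P2 4 and P3 3, the arrays of least spread, 15 rose and 1 fell. Leaving out P2 2 gave 17 risers and leaving out P2 4 gave 16.

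**Figure D1:**
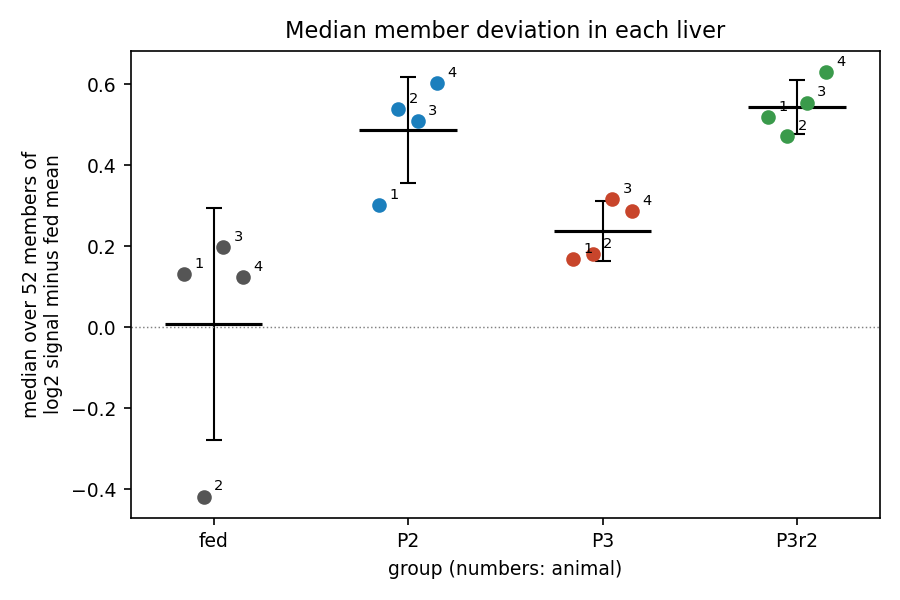
Median over the 52 members of the log2 signal minus the fed mean of the gene (y axis) in each of the 16 livers by group (x axis). Points are animals, the long line is the mean of 4 animals and the bars are 1 SD. Fed 2, at -0.42, sits below all other livers, and the re-fed livers lie between 0.47 and 0.63.

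Short genes were higher at P2 on these arrays in general, and members are short. Their median span from the first to the last base of the gene was 7356 bases, against 19902 for all genes with a span. Genes were split into 5 classes of equal size by span. In the shortest class (297 to 5011 bases) the median change at P2 against fed was 0.15, and 10.3% rose and 1.59% fell. The 17 members in that class had a median of 0.49, and 9 rose. In the longest class 2.42% rose and 14.2% fell. With the trend along the span taken out of each array, 23 members rose and 2 fell, where the same rows with the trend kept gave 28 and 0.

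**Figure D2:**
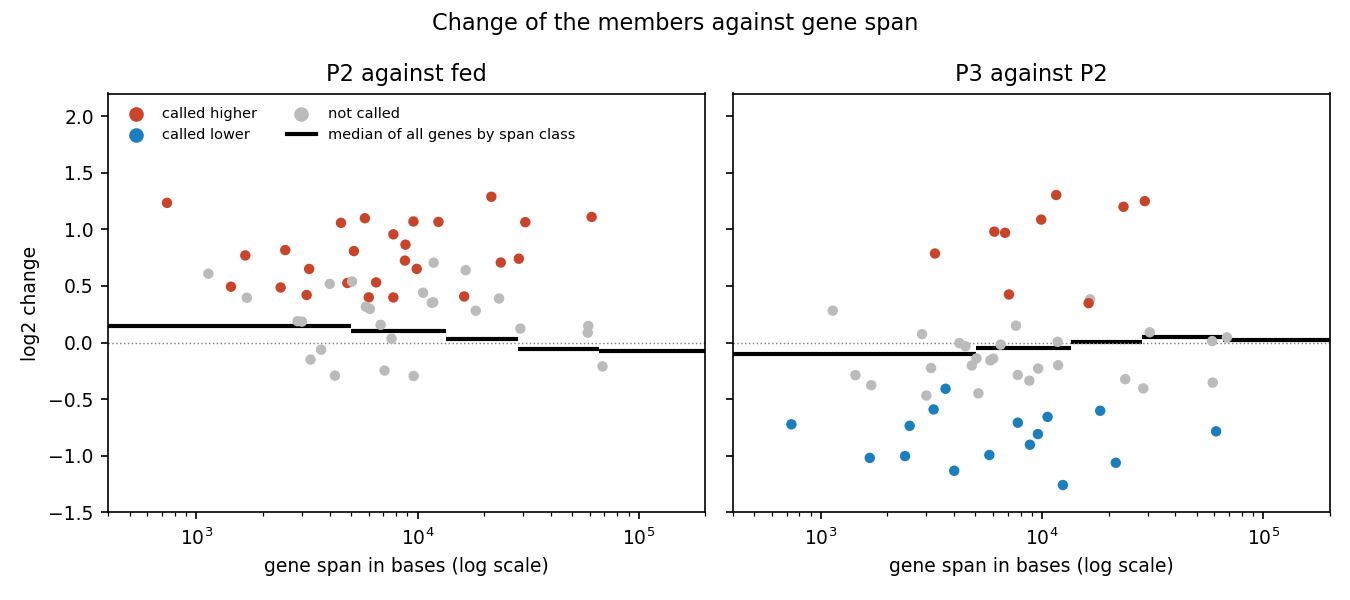
Log2 change of each member (y axis) against the span of its gene in bases (x axis, log scale), at P2 against fed on the left and P3 against P2 on the right. Black lines are medians of all genes in 5 classes of span. At P2 most members lie above the line of their class, at 0.49 against 0.15 in the shortest class, and at P3 against P2 members are spread to both sides.

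At phase 3 members were called in both directions against fed liver. Of the 52, 13 rose and 3 fell, where 19.3% of all rows were called, 11.3% higher and 8.06% lower. The median change of the members was 0.25, against 0.03 for all rows, and 39 changes were positive and 13 negative. Without fed 2 these were 34 and 18. Over all rows, with fed 2 kept, 55.4% of changes were positive. When the rows above the median signal were tested alone, 39.2% of them were called, 23% higher. Of the 49 members among them 13 rose (26.5%), near that share, and 3 fell. In 17 members all P3 values lay above all fed values and in 2 below, where 19.6% of all rows had groups apart. Of the 18 members of the small subunit 7 rose and 2 fell, and of the 34 of the large subunit 6 rose and 1 fell.

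Mrps10, homologous to a bacterial protein in the head of the small subunit, had the largest change. Its signals were 6.82, 5.98, 6.39 and 7.09 in the fed livers and 8.40, 7.87, 8.46 and 8.51 at P3. The lowest P3 liver was above the highest fed liver, and the rise was 1.74 ± 0.20 (adjusted p = 1.0e-05). Mrpl47, homologous to bacterial L29, had 4.97, 4.80, 4.89 and 4.87 in the fed livers and 6.54, 5.98, 6.52 and 7.11 at P3. The groups were far apart, the fed livers lay close together, and the rise was 1.66 ± 0.17 (adjusted p = 4.6e-06). Mrpl3, which lies near the centre of peptide bond formation, had 7.88, 7.21, 7.82 and 7.94 in the fed livers and 9.12, 8.94, 9.64 and 9.51 at P3. It rose by 1.59 ± 0.17 (adjusted p = 5.8e-06), without overlap. Mrps31, a small-subunit protein found in mitochondria alone, had 5.47, 5.41, 5.44 and 5.55 in the fed livers and 6.69, 6.46, 6.92 and 7.30 at P3. It rose by 1.37 ± 0.15 (adjusted p = 1.0e-05), with all P3 livers above all fed livers.

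Mrps18b rose by 1.28 ± 0.18 and Mrps18a by 1.02 ± 0.21. Both descend from the same bacterial protein, but Mrps18b sits in the small and Mrps18a in the large subunit. Mrps35 rose by 1.15 ± 0.21, Mrpl38 by 1.13 ± 0.19 and Mrpl12 by 1.03 ± 0.21. Mrps34 (0.89 ± 0.22), Mrps5 (0.76 ± 0.11), Mrps2 (0.64 ± 0.13) and Mrpl58 (0.51 ± 0.11) complete the 13. Mrps5 and Mrps2 have bacterial homologues that lie along the path of the mRNA. The 3 members that fell were Mrps11, Mrps16 and Mrpl51. Mrps16 had 7.67, 7.62, 7.71 and 7.67 in the fed livers and 7.22, 7.17, 7.30 and 6.91 at P3, with no overlap. It fell by 0.52 on the log2 scale, with a standard error of 0.13 and an adjusted p of 0.011. Mrps11 fell by 0.52 and Mrpl51 fell by 0.47, and Mrps11 lost its call when any of 7 single arrays was left out. Without fed 2 13 members rose and 8 fell. Quantile normalization of the arrays ended the call of Mrpl58.

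Set against phase 2, 9 members rose at phase 3, 16 fell and 27 were not called, where 22% of all rows were called, 13.5% higher and 8.53% lower. The risers are 17.3% of the members, near the share of all rows, and the fallers 30.8%. When rows above the median signal were tested alone, 43.5% were called, 28.1% higher. Of the 49 members among them 9 rose (18.4%), a smaller share than that of these rows, and 17 fell. The median change of the members was -0.23, against -0.03 for all rows. All P3 values lay above all P2 values in 10 members and below them in 14, and 21.9% of all rows had groups apart. Fallers made up 11 of 34 members of the large subunit and 5 of 18 of the small, and risers 4 and 5. By the numbers in their names, with Mrpl47 and Mrpl55 added, 28 members were counted as homologues of bacterial ribosomal proteins. Of these 6 rose and 7 fell, and of the other 24 members 3 rose and 9 fell. Neither difference was tested. No fed liver enters these values except through the shared estimate of spread.

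Mrpl47 rose by 1.30 ± 0.17, from 4.98, 5.25, 5.39 and 5.31 at P2 (adjusted p = 5.9e-05). Mrps31 rose by 1.25 ± 0.15, from 5.34, 5.49, 5.84 and 5.71 (adjusted p = 3.5e-05). Mrpl3 rose by 1.20 ± 0.17, from 8.04, 8.18, 8.13 and 8.06 (adjusted p = 1.0e-04). In all of these every P3 liver was above every P2 liver. Mrps10 rose by 1.09 ± 0.20, Mrps18b by 0.98 ± 0.18 and Mrpl38 by 0.97 ± 0.19. Mrps2 (0.79 ± 0.13), Mrps30 (0.42 ± 0.12) and Mrps5 (0.35 ± 0.11) rose less. Leaving out P2 1, P3 3 or P3 4 ended the call of Mrps5 (adjusted p up to 0.082), as did quantile normalization and taking out the trend along the span.

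The falls were of like size. Mrpl14 went from 6.50, 6.88, 6.46 and 7.45 at P2 to 5.31, 5.74, 5.76 and 5.43 at P3. It fell by 1.26 with a standard error of 0.22 (adjusted p = 6.7e-04), and the groups did not overlap. Mrpl49 went from 6.26, 6.82, 6.74 and 7.61 to 5.65, 5.88, 5.94 and 5.42. It fell by 1.13 with a standard error of 0.23 (adjusted p = 0.0020), again without overlap. Mrps16 went from 7.91, 8.12, 8.04 and 8.54 to the P3 values given above. It fell by 1.00 with a standard error of 0.13 (adjusted p = 6.4e-05), the smallest p among the fallers. Mrpl13 fell by 1.06, Mrps26 fell by 1.02 and Mrpl27 fell by 0.99. Mrpl13 lost this call when P2 4 or P3 4 was left out, with an adjusted p of up to 0.076. The other named fallers kept theirs whichever single array was left out.

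**Figure D3:**
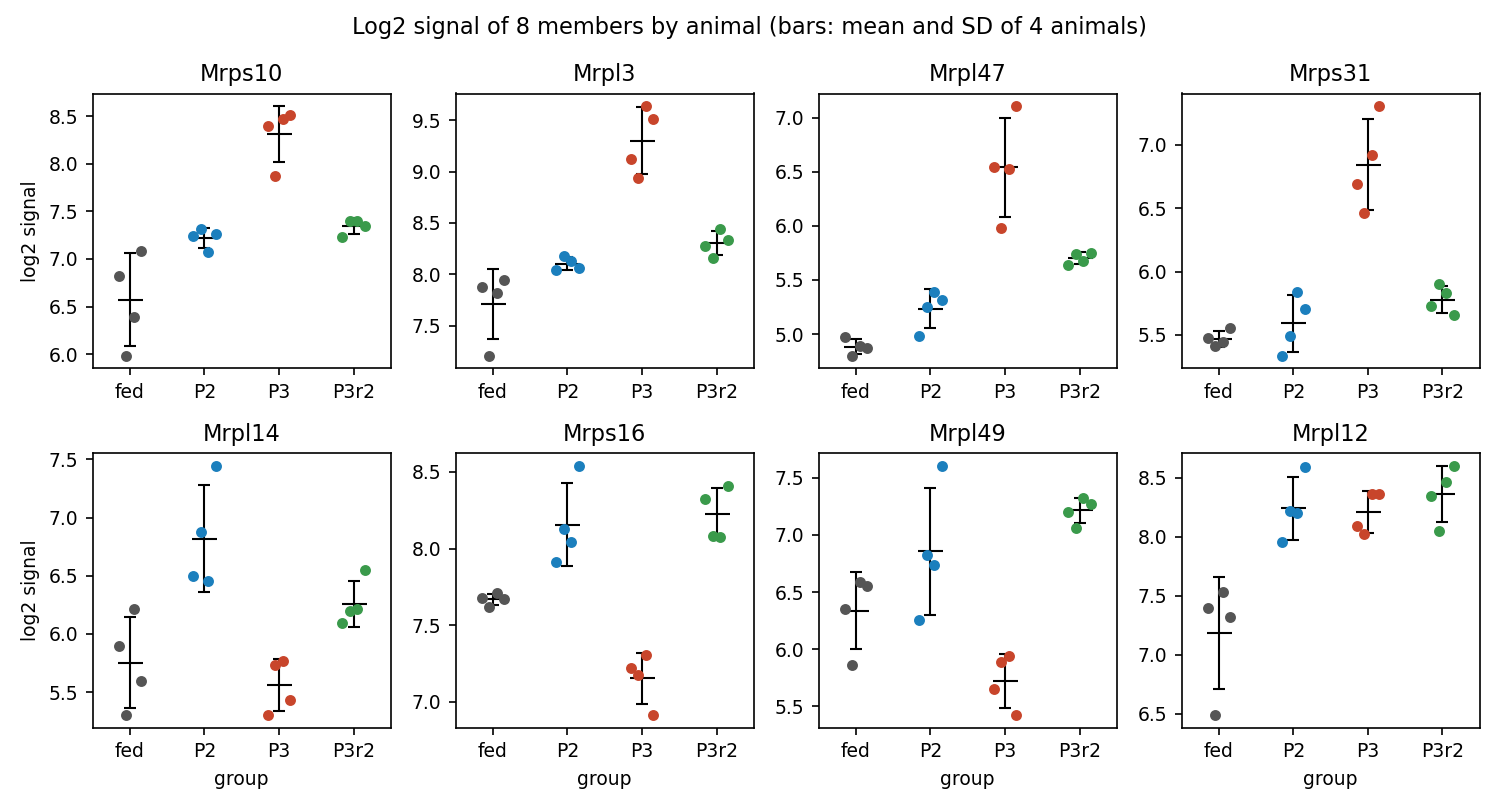
Log2 signal (y axis, a scale of its own in each panel) of 8 members in the 16 livers by group (x axis). Points are animals and bars are the mean and 1 SD of 4 animals. Mrps10, Mrpl3, Mrpl47 and Mrps31 have their highest values at P3, Mrpl14, Mrps16 and Mrpl49 have their lowest means at P3, and Mrpl12 lies above the fed livers in all other groups.

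The members that rose from P2 to P3 and those that fell overlapped in span, in signal and in their windows at the start. The 9 risers had a median span of 9913 bases (3281 to 29164) and the 16 fallers one of 6776 (736 to 61248). The ETS letters were found in 4 of 8 risers and 5 of 16 fallers with a window, the YY1 letters in 2 and 1, and the NRF1 letters in 1 and 0. The median GC content of the windows was 49.7% in the risers and 57.2% in the fallers, against 57.7% for genes on the array. These are descriptions of few genes, and no test was made.

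Of the members, 14 share their start region with a neighbour read in the opposite direction, with starts at most 1000 bases apart or overlapping by at most 100 bases. For 10 of them the neighbour was measured. Mrpl46, a large-subunit protein with a NUDIX fold, and Mrps11 are such a pair, with starts 15 bases apart in GRCr8. At P2 Mrpl46 rose by 0.72 ± 0.19, and Mrps11 changed by -0.29 ± 0.17 and was not called. At P3 against fed Mrpl46 changed by 0.39 ± 0.19 without a call, and Mrps11 fell by 0.52. Mrpl51 and its neighbour Ncapd2, a subunit of condensin, were called in opposite directions from P2 to P3. Mrpl51 fell by 0.41, and Ncapd2 rose by 1.37 ± 0.15. Mrps18b and its neighbour Ppp1r10 both rose, by 0.98 ± 0.18 and 0.92 ± 0.26. Few cases had both the member and its neighbour called. There was 1 at P2 against fed, 1 at P3 against fed, 2 at P3 against P2, 1 at P3r2 against P3 and 0 at P3r2 against fed. Mrps18b with Ppp1r10 was the only one of these in the same direction. Mrpl46 and Mrps11 are each counted as the neighbour of the other.

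After 2 days of re-feeding the mean of 38 of 52 members was above that at phase 3, as were 45.1% of all rows. Against P3, 18 members rose and 4 fell, where 18.4% of all rows were called, 10.5% higher and 7.93% lower. With the rows above the median signal alone, 37% were called, 20.9% higher, and 17 of 49 members (34.7%) rose and 5 fell. The median change was 0.25, against -0.03 for all rows. In 20 members the re-fed values lay above all P3 values and in 9 below, and 22.8% of all rows had groups apart. The risers numbered 12 of 34 in the large subunit and 6 of 18 in the small.

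Mrpl49 rose most, by 1.49 ± 0.23 (adjusted p = 2.2e-04). Its re-fed values were 7.20, 7.06, 7.32 and 7.27, all above the P3 livers. Mrps16 rose by 1.07 ± 0.13 (adjusted p = 3.0e-05), to 8.32, 8.08, 8.08 and 8.41. Mrps26 rose by 0.91 ± 0.18, Mrpl37 by 0.89 ± 0.14 and Mrpl51 by 0.85 ± 0.13. Mrps12, which was called in no comparison with fed liver, rose by 0.84 ± 0.18. Mrpl13 rose by 0.98 ± 0.31, but 10 single arrays each ended its call when left out. The 4 that fell were Mrps31 (-1.06 ± 0.15), Mrpl3 (-1.0 ± 0.17), Mrps10 (-0.97 ± 0.20) and Mrpl47 (-0.84 ± 0.17). The re-fed livers held 5.73, 5.90, 5.83 and 5.66 of Mrps31 and 5.64, 5.74, 5.67 and 5.75 of Mrpl47, all below the P3 livers. Leaving out P3 1 left 11 risers.

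The comparison of P2 with fed and that of P3r2 with P3 share no liver. There were 8 members that rose in both, 30.8% of the 26 that rose at P2 and 44.4% of the 18 that rose on re-feeding. Of all members, 34.6% rose on re-feeding.

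Against fed liver, the re-fed livers were above in the mean of all 52 members, and in that of 54.6% of all rows. Of the members 16 rose and none fell (44 and 0 at an unadjusted limma p below 0.05). Of all rows 2.72% were called, 2.21% higher and 0.514% lower. With the rows above the median signal alone, 6.27% were called higher and 7.37% in either direction, and 25 of 49 members rose. The median change was 0.55, against 0.02 for all rows. In 40 members all re-fed values lay above all fed values and in none below, where 12.5% of all rows had groups apart. These numbers rest in part on fed 2. Without it 50 of 52 changes were positive, with a median of 0.40, and 7 members rose, with 1.68% of all rows called. Leaving out a re-fed liver also left few risers, 7 without P3r2 1, 5 without P3r2 2, 4 without P3r2 3 and 5 without P3r2 4.

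Mrpl12 had 8.35, 8.05, 8.46 and 8.60 after re-feeding. All of these were above the fed livers, and it rose by 1.18 ± 0.21 (adjusted p = 0.0058). Mrpl48 had 6.51, 6.48, 6.51 and 6.47, which lie very close together, and rose by 1.15 ± 0.17 (adjusted p = 0.0021). Both kept their calls whichever single array was left out. Mrpl45, which anchors the ribosome to the inner membrane, rose by 0.99 ± 0.23, and Mrpl46 by 0.81 ± 0.19. Mrpl50 rose by 0.98 ± 0.21 and Mrpl47 by 0.82 ± 0.17. Leaving out fed 2 ended the calls of Mrpl45, Mrpl46 and Mrpl47 (adjusted p = 0.071, 0.076 and 0.054), and that of Mrps18b (0.096). Mrpl50 lost its call when any of 5 arrays was left out alone, with an adjusted p of up to 0.067. Mrpl58 rose by 0.63 ± 0.11 and kept its call whichever single array was left out. Quantile normalization ended the calls of Mrpl45, Mrpl46, Mrpl50, Mrps18b and Mrpl58.

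The order of the group means sums up the members. The highest mean of the 4 groups was that of the re-fed livers in 24 members, of P2 in 16 and of P3 in 12, and never that of the fed livers. The lowest mean was that of the fed livers in 37 members, of P3 in 12 and of P2 in 3. Both counts depend on fed 2. Without it the fed livers had the lowest mean in 29 members, P3 in 17, P2 in 5 and the re-fed livers in 1. The fed mean was then the highest in 1 member, Mrps11 (4.46, against 4.37 after re-feeding). A group of 12 members was called in none of the comparisons among fed, P2 and P3.

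**Figure D4:**
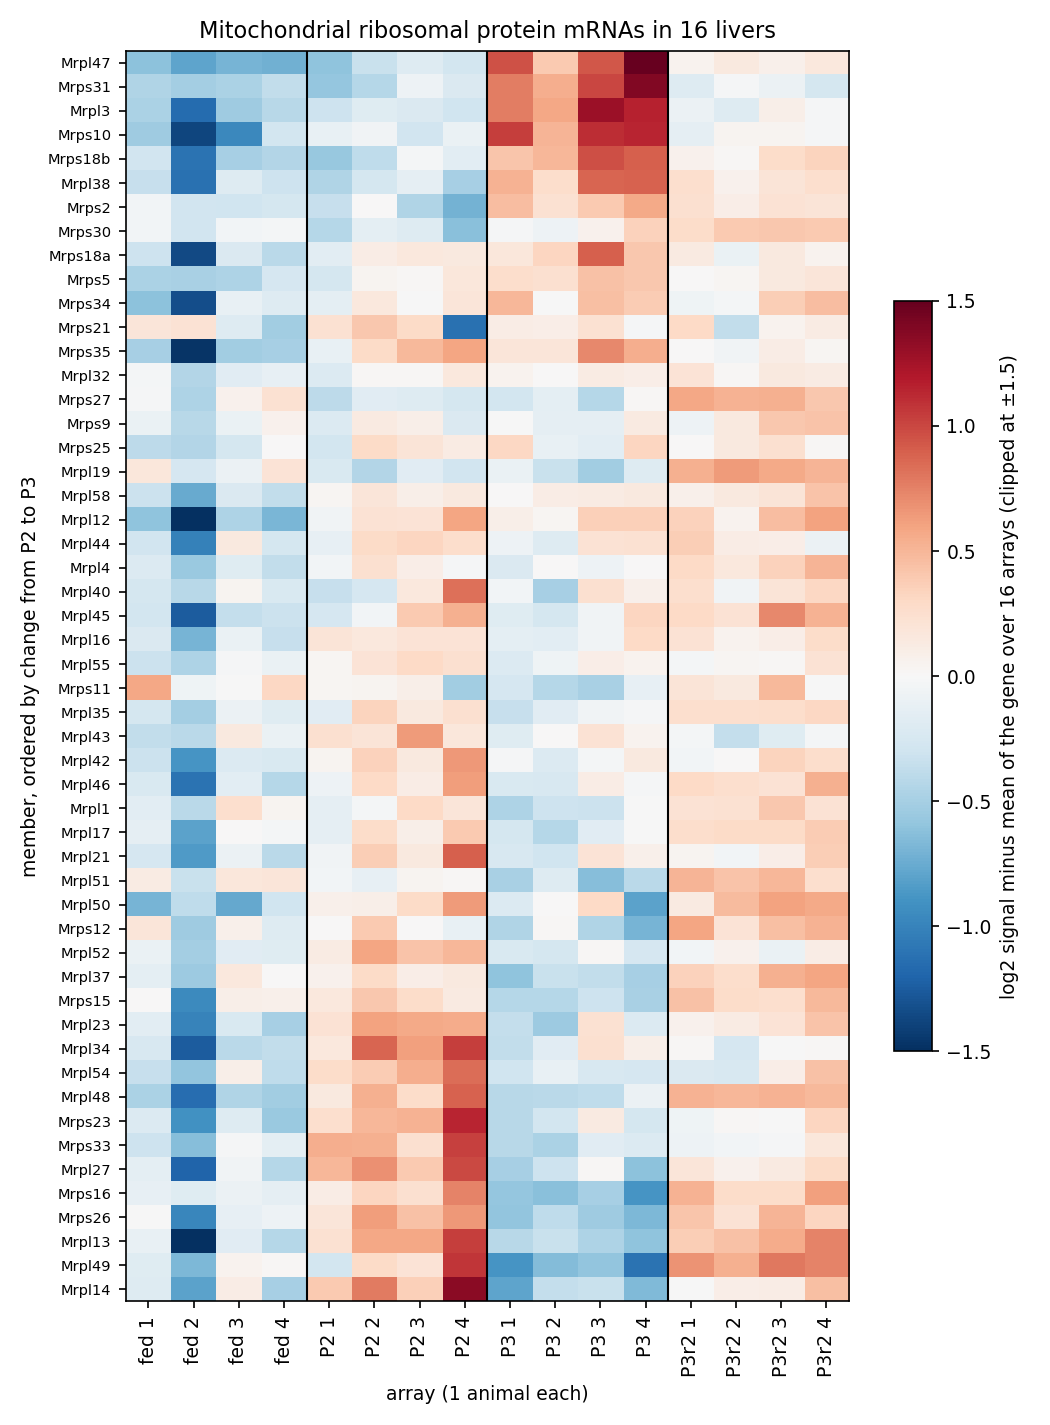
Log2 signal of the 52 members (rows, ordered by change from P2 to P3) in the 16 livers (columns), minus the mean of the gene over all arrays. Red is above and blue below that mean, and the scale ends at 1.5. The top rows are red at P3, the bottom rows are red at P2 and blue at P3, and fed 2 is the bluest fed liver, lowest of its group in 49 members.

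**Figure D5:**
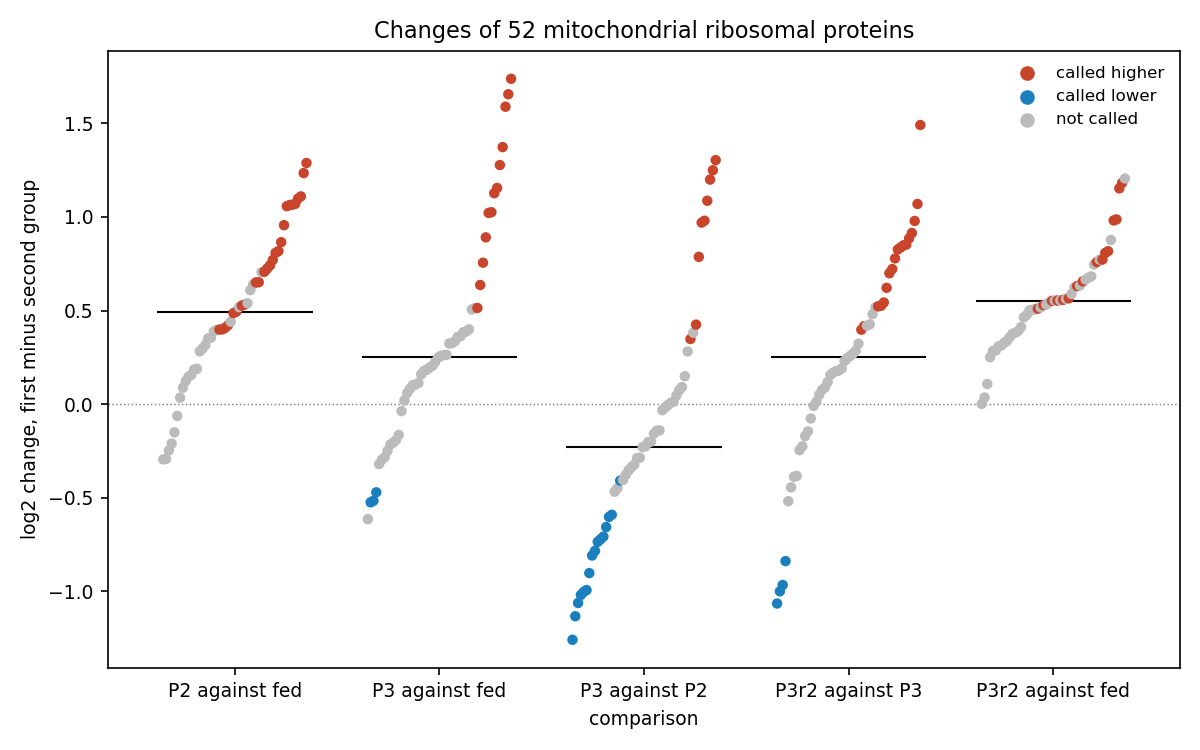
Log2 change of the 52 members (y axis), ordered by size within each of 5 comparisons (x axis). Red points rose, blue points fell and grey points were not called, and the lines are medians of the members. P2 and P3r2 against fed have 26 and 16 risers and no fallers, and P3 against P2 has 9 risers and 16 fallers.

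The counts for the other lists of genes below are read against the shares of all rows. These were 6.13% higher and 6.58% lower at P2 against fed, 11.3% and 8.06% at P3 against fed, and 13.5% and 8.53% from P2 to P3. They were 10.5% and 7.93% on re-feeding against P3, and 2.21% and 0.514% on re-feeding against fed.

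Components of the same ribosome that carry other names were called in both directions. Dap3, a small-subunit GTPase, changed by -0.20 ± 0.11 at P2 against fed without a call and rose by 0.36 ± 0.11 from P2 to P3. It rose again by 0.40 ± 0.11 on re-feeding, to 7.0, 7.02, 7.11 and 6.99. Gadd45gip1, a large-subunit protein, rose by 0.75 ± 0.16 at P2, fell by 0.83 from P2 to P3 and rose by 0.53 ± 0.16 on re-feeding. Aurkaip1 of the small subunit rose by 0.70 ± 0.17 at P2 and by 0.88 ± 0.17 at P3 against fed. Ptcd3, an RNA-binding protein of the small subunit, rose by 0.77 ± 0.18 at P3 against fed. Calls that ended when single arrays were left out were those of Dap3 from P2 to P3 (4 arrays, adjusted p up to 0.069) and of Gadd45gip1 on re-feeding (6 arrays, up to 0.093). Chchd1 was not analysed here.

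The proteins that assemble this ribosome and modify its RNA were measured for 16 of 26 listed genes. Of these 4 rose at P2 against fed, 7 at P3 against fed and 4 on re-feeding against fed, and none fell by limma. The risers are 25%, 43.8% and 25% of the list, where 6.13%, 11.3% and 2.21% of all rows were called higher. At an unadjusted p below 0.05, 2 were lower at P2 against fed. From P2 to P3, 4 rose and 1 fell, and from P3 to re-feeding 2 rose and 1 fell. The share called on re-feeding against P3, 18.8%, is about that of all rows (18.4%). Dhx30, a helicase of the mitochondrial RNA granule, rose by 1.64 ± 0.19 from P2 to P3 (adjusted p = 2.0e-05) and fell by 0.58 on re-feeding. Fastkd2, an RNA-binding protein of the same granule, rose by 1.32 ± 0.26 at P3 against fed. Mterf4, which brings a methyltransferase to the large ribosomal RNA, fell by 0.76 from P2 to P3. The call of Mterf4 ended without P2 4 (adjusted p = 0.053), and that of Dhx30 on re-feeding ended when any of 12 arrays was left out alone (up to 0.15).

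Of 8 measured translation factors of 13, none was called by limma at P2 against fed, though 4 had an unadjusted p below 0.05. From P2 to P3 the initiation factor Mtif2 (0.71 ± 0.24) and the elongation factor Gfm1 (0.57 ± 0.15) rose, and Mtif2 lost its call when any of 11 arrays was left out alone (adjusted p up to 0.15). The 2 called are 25% of the list, near the 22% of all rows. On re-feeding against P3 Tufm (0.50 ± 0.13) and Guf1 (0.41 ± 0.11) rose, again 25%, where 18.4% of all rows were called. At P3 against fed 1 rose, Oxa1l, which inserts new proteins into the inner membrane (0.44 ± 0.11). Of 13 measured mitochondrial tRNA synthetases of 17, 2 fell at P2 against fed. Those were Tars2, which fell by 0.65, and Vars2, which fell by 0.60. At P3 against fed 2 rose and 2 fell, with Mars2 up by 2.38 ± 0.23 (adjusted p = 1.8e-06) and Tars2 down (-0.74 ± 0.13). The 4 called are 30.8% of the list, where 19.3% of all rows were called. From P2 to P3 2 rose and 1 fell, 23.1% of the list and near the 22% of all rows. At P2 against fed the 2 called are 15.4%, near the 12.7% of all rows. On re-feeding against P3 6 rose and 1 fell, 53.8% of the list against 18.4% of all rows, with Tars2 up by 1.11 ± 0.13, and against fed 4 rose.

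Genes that copy and transcribe the mitochondrial genome were measured for 9 of 11. At P2 against fed 2 rose, at P3 against fed 5 rose and 1 fell, from P2 to P3 2 rose and 1 fell, and on re-feeding against P3 1 rose and 3 fell. Against fed, none was called by limma after re-feeding, with 5 at an unadjusted p below 0.05. Tfam, which packs mitochondrial DNA and starts its transcription, rose by 1.08 ± 0.24 at P2 and by 0.95 ± 0.24 at P3 against fed. Lrpprc and Slirp, partners that bind and steady mitochondrial mRNA, were called in opposite directions. Lrpprc had 8.82, 8.71, 8.38 and 8.04 at P2 and 10.39, 9.98, 10.22 and 10.42 at P3. Slirp had 4.37, 4.36, 4.50 and 4.42 at P2 and 3.41, 3.50, 3.56 and 3.46 at P3. In both the groups were far apart. Lrpprc rose by 1.77 ± 0.18 (adjusted p = 7.2e-06), and Slirp fell by 0.93 with a standard error of 0.10 (adjusted p = 7.4e-06).

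The regulators of nuclear genes for mitochondria were mostly highest at P3. Of 10 measured, 2 rose and 1 fell at P2 against fed, and 7 rose and 1 fell at P3 against fed. From P2 to P3 9 rose, and on re-feeding 1 rose and 7 fell. Against fed, none was called by limma after re-feeding, with 3 higher at an unadjusted p below 0.05. Ppargc1a, a coactivator of genes for mitochondria and for glucose synthesis, had 4.94, 4.42, 4.34 and 5.08 in the fed livers. It had 5.90, 6.17, 5.39 and 5.36 at P2 and 10.37, 9.98, 8.82 and 10.03 at P3. The groups followed each other without overlap. It rose by 1.01 ± 0.29 at P2 (adjusted p = 0.032) and by 4.10 ± 0.29 from P2 to P3 (adjusted p = 2.1e-07). Its call at P2 ended without fed 2, fed 3, P2 1 or P2 2 (adjusted p up to 0.093). It fell by 4.01 on re-feeding.

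Esrra, a nuclear receptor that works with Ppargc1a, rose by 0.55 ± 0.17 at P2 and by 1.58 ± 0.17 from P2 to P3. The first of these calls ended when any of 13 arrays was left out alone (adjusted p up to 0.11). Myc rose by 2.96 ± 0.32, Pprc1 by 1.69 ± 0.26 and Ppargc1b by 1.65 ± 0.18 from P2 to P3. Over the same step Ppara rose by 1.29 ± 0.29, Gabpa by 0.95 ± 0.20, Nrf1 by 0.81 ± 0.12 and Yy1 by 0.57 ± 0.14. Nfe2l2, which governs antioxidant genes, fell by 0.76 at P2 and by 0.59 at P3 against fed. At the same step from P2 to P3 the members themselves had 9 risers and 16 fallers.

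Subunits of the respiratory chain and ATP synthase, many of which work with proteins made by this ribosome, were set beside the members by symbol. Of 55 measured, 31 rose and 1 fell at P2 against fed, with a median of 0.59. From P2 to P3 6 rose and 16 fell, with a median of -0.13. On re-feeding against P3 4 rose and 3 fell, with a median of 0.04, where 18 members rose and 4 fell. Only cytosolic ribosomal proteins with a row of their own could be counted, 25 by symbol. Of these 7 rose at P2 against fed, 7 rose and 1 fell at P3 against fed, and 2 rose from P2 to P3. On re-feeding against P3 1 rose and 6 fell. At P3 against fed 20 of the 55 respiratory chain and ATP synthase subunits rose and none fell. After re-feeding against fed 10 of them rose and none fell, and 52 changes were positive (median 0.44). All measured assembly genes (16), tRNA synthetases (13) and translation factors (8) were above fed there too. Of the cytosolic ribosomal proteins 19 were above and none was called by limma. These counts include fed 2, and 54.6% of all rows were above fed in the same comparison. The differences between these families or lists and the members were not tested.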

How the data were processed

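Per the submitters' processing notes, the authors used GCOS and Affymetrix Expression Console 1.1. The deposited log2 signals have 1 row per transcript cluster. The base of the logarithm was inferred from their range (0.84 to 13.6). The sources used here do not give the summarisation, background correction or genome build. Values were used without further scaling. Of 19418 rows, 533 without annotation were left out and 18885 tested. Of those, 13327 carry 1 gene symbol, 620 several and 4938 none. A gene was represented by its brightest row.

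A limma 3.58.1 model (R 4.3.3) of the 16 arrays, fitting each group's mean, gave 5 two-sided contrasts with 12 residual degrees of freedom before eBayes, Benjamini-Hochberg adjusted over all rows. The steps were tested on simulated data. The rule for named genes takes, per comparison, the 6 largest rises and 6 largest falls among called members whose groups do not overlap, a list of key members, up to 4 called genes per other list and every measured regulator. Other called members, and pairs of neighbours, were named after their values were seen. The members and lists were chosen with earlier results of these data known. Spans and start windows are from RefSeq GRCr8. Of 24 pairs of same-numbered animals, 6 had deviations correlated above 0.1. The main fit does not pair samples by number, and these correlations cannot tell whether the numbers mark a batch. Alternatives tried are in the closing section. Figures were drawn with matplotlib 3.10.9.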

Additional observations from a re-analysis of the deposited data

Results flagged for a closer look

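In 15 of the 112 groups of 4 arrays tested, over 27 named members and the members' median, the highest or lowest liver stood apart by Dixon's criterion at its 95% value, where chance gives about 1 in 20 groups. Fed 2 was the liver in 10 of the 15, as the lowest of its group. There the members' median deviation was -0.42, and the log2 signal was 4.75 for Mrpl13, 7.21 for Mrpl3, 6.17 for Mrpl34, 5.73 for Mrpl45, 4.85 for Mrpl48, 8.65 for Mrpl51, 6.69 for Mrps18a, 6.69 for Mrps26 and 5.39 for Mrps35. These groups share 1 array and are not independent. Part of the members were named for large changes without overlap in these same values, so the share given for chance need not hold for them. The others were spread over 5 livers. Mrpl34 was lowest in P3r2 2 (7.16), Mrps11 in P2 4 (3.64) and Mrps18a in P2 1 (7.90), and Mrpl48 was highest in P3 4 (5.90) and Mrps5 in fed 4 (6.33).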

How the results depend on the processing

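No called change of a named gene turned in direction under the alternatives run. The signs of smaller changes did turn in some members. At P3 against fed 13 of 52 were negative, against 18 with quantile normalization and 20 without fed 2, P2 4 and P3 3, and at P3r2 against fed 0 were, against 1 and 2. With the brighter rows alone the median of all rows at P2 against fed turned from 0.05 to -0.05. At P2 against fed the risers numbered 13 with the 2 groups alone, 12 at an adjusted p below 0.01 and 15 without fed 2, P2 4 and P3 3, and fallers numbered 1 with array weights, 1 without those 3 arrays and 2 with the trend along gene length taken out. At P3 against fed the fallers numbered 5 with quantile normalization, 6 with array weights, 1 with the 2 groups alone, 0 at 0.01, 7 without the 3 arrays and 6 with the length trend out. At P3r2 against P3 the risers numbered 10 at 0.01. At P3r2 against fed they numbered 4 with quantile normalization, 29 with array weights, 25 with the brighter rows alone, 4 at 0.01 and 9 with array spread as a covariate. The causes were not tested, except that a stricter threshold calls fewer by construction. The comparison of rows with a known length, trend kept, and the order of group means without fed 2 were chosen after the data were seen. With each array left out in turn, risers and fallers ranged from 16 to 27 and 0 to 1 at P2 against fed, 13 to 14 and 2 to 8 at P3 against fed, 7 to 9 and 13 to 18 at P3 against P2, 11 to 18 and 4 to 6 at P3r2 against P3, and 4 to 17 and 0 to 0 at P3r2 against fed.

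With the number as a replicate block, risers and fallers were 25 and 0, 13 and 2, 9 and 15, 15 and 5, and 14 and 0 in the same order. The main fit takes the numbers as names of the animals alone. The correlations of same-numbered animals (-0.40 to 0.26) cannot tell whether the numbers also mark a batch. Among named genes, 227 of the values with 1 array left out and 153 of those under other alternatives lost a call, and 13 and 50 gained one. Durations of fasting and probe-level data were not analysed here, and 4 arrays per group limit what smaller changes can be called.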
